A study of Mus musculus with 2 samples.

Results

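Transcripts of 8 genes of the lysosome were followed across the leukocytes of mouse blood: the hydrolases Lyz2, Ctss, Ctsc, Ctsd and Ctsb, the activator proteins Gm2a and Psap, and the membrane protein Cd63. They are 8 of the 11691 genes in the table, and all 8 had UMIs (unique molecular identifiers, one per captured transcript) in both libraries. The genes were picked from their summed counts and their shares of cells by population and library in these same data, so their levels and the differences between populations and between libraries are given as descriptions, with no test. Myeloid cells were sorted from the blood of C57BL/6 mice as CD11b+ Ly6G- and CD11b+ Ly6G+ cells 24 h after the proximal middle cerebral artery had been occluded transiently, a model of ischemic stroke, and 10x 3′ v2 libraries were made. The young group was 2 to 4 months old and the aged group 18 to 24 months, each with 1 library, and every mouse had the occlusion, so no library of uninjured mice enters. Whether animals were pooled, and how the sorted fractions were mixed, is not given in the sources used here.

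The authors labelled each cell with a population. After removal of likely doublets there were 1136 young and 2616 aged neutrophils (median 1631.5 and 1899 UMIs per cell) and 538 and 943 monocytes (median 6638 and 6393 UMIs). Conventional dendritic cells numbered 52 and 105, NK cells 69 and 58, and follicular B cells 14 and 41, and the label Mast cell was on 42 aged and 0 young cells. Markers of each labelled type were found in it, except that Zbtb46, Xcr1 and Clec9a had no UMI in the young dendritic cells and Pax5 none in the young B cells. The libraries shared 12 cell barcodes. With 1 library per age there is no replicate: every ratio below compares these libraries, not ages, and its 95% interval covers counting error only.

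Lysosomes are acid organelles in which proteins, lipids and sugars taken up or discarded by the cell are broken down. Lysozyme cuts bacterial cell wall glycan, cathepsins cut proteins, and small activator proteins lift glycolipids out of membranes so that hydrolases can reach them. Blood phagocytes depend on these enzymes: monocytes build up a lysosomal system as they turn into macrophages, while neutrophils load related hydrolases into granules early, in the bone marrow, and store them. Many lysosomal genes carry a short E-box palindrome near their start, the CLEAR element, which is bound by the transcription factor TFEB and its relatives.

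All 8 genes are protein-coding in GENCODE M21 on GRCm38 (mm10). Lyz2 lies at chr10:117277331-117282321 on the minus strand, with its close copy Lyz1 beside it at chr10:117287797-117292868, so reads could be split between the pair. Gm2a lies at chr11:55098115-55113029 and Psap at chr10:60277627-60302597, both on the plus strand. Of the cathepsins, Ctss is at chr3:95526786-95556403, Ctsc at chr7:88278085-88310888 and Ctsb at chr14:63122462-63145923, all on the plus strand, and Ctsd is at chr7:142375911-142388038 on the minus strand. Ctsd overlaps the gene model Gm49369 and Ctss the pseudogene Hmgb1-ps5, each on its own strand, so their counts could be split too. On the opposite strand, Ctsc overlaps Gm26522 and Ctsb overlaps Fdft1. Cd63 is at chr10:128900989-128912822 on the plus strand.

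Promoter sequences are shown for 3 members: Lyz2 and Gm2a, because they were lower in the aged library in both neutrophils and monocytes, and Ctsd, because it alone among the members held the CLEAR-type palindrome. RefSeq promoters (GRCm38.p6, 250 bases before to 50 after the start) were matched for 7 of the 8 members, Ctsb having none in the table. For Lyz2 and Gm2a the stretches below end before the start in both annotations, and for Ctsd 30 bases are given. The Ctsd stretch precedes the RefSeq start but begins 101 bases inside the GENCODE gene, in the 5′ UTR of 1 of its transcripts. Capitals mark TCACGTGA in Ctsd and, in Lyz2, a match to AGGAAGT, the core bound by the myeloid factor PU.1 and other ETS proteins, here on the opposite strand. Positions are chr10:117282322-117282522 (minus strand), chr11:55097735-55097984 (plus strand) and chr7:142387908-142387937 (minus strand).
Lyz2: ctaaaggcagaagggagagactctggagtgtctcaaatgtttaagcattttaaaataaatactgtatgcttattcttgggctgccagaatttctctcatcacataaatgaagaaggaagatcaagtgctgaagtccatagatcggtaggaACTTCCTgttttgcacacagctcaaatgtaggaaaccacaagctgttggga
Gm2a: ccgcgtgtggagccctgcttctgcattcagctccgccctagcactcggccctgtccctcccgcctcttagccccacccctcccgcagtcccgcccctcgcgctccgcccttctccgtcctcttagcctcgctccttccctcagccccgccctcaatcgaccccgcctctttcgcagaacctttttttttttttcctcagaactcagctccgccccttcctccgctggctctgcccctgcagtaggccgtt
Ctsd: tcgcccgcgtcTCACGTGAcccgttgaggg

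TCACGTGA, which reads the same on both strands, began 99 bases before the RefSeq start of Ctsd and was in 1 of the 7 matched members. It was in 320 of all 32851 promoters of that length (0.974%). In the wider set of lysosomal genes it was found in 3 of 12 V-ATPase genes (Atp6v0d1, Atp6v0e and Atp6v1a), in 2 of 12 other peptidase genes (Ctsa and Dpp7), in 2 of 16 membrane protein genes (Cln3 and Mcoln1), in 2 of 18 sorting and regulator genes (Gnptg and Igf2r) and in 1 of 28 other hydrolase genes (Gla). None (0) of 7 cystatin and stefin genes, 16 other tetraspanin genes, 4 azurophilic granule genes and 1 lysozyme copy held it. The shorter core CACGTG and the form GTCACGTG were likewise found in Ctsd alone among the members, and in 7.15% and 2.25% of all promoters. Each matched Ctsd at 2 places, over the palindrome (98 bases before the start) and apart from it (245 bases before). AGGAAGT, searched on both strands and chosen after the sequences were seen, was in Lyz2, Ctss and Ctsc and in 9.35% of all promoters. These matches are descriptions of letters and were not linked to binding.

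Levels are in CPM, the UMIs of a gene scaled to a fixed total over all genes in each population of a library. Levels of different genes are not set against each other here. Monocytes held more of most members than neutrophils did. The 8 genes made up 2.12% of all young and 1.73% of all aged monocyte UMIs, and 0.467% and 0.334% of neutrophil UMIs. Without Lyz2 the shares were 0.551% and 0.619% in monocytes and 0.189% and 0.151% in neutrophils. Of the 8, 6 were at least 1.5-fold higher in monocytes than in neutrophils in both libraries, where 58.8% of 6098 genes measured were, so the count lies near that of genes at large. The exceptions were Ctsd and Cd63, and 10.9% of genes were at least 1.5-fold lower in monocytes in both libraries.

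**Figure D1:**
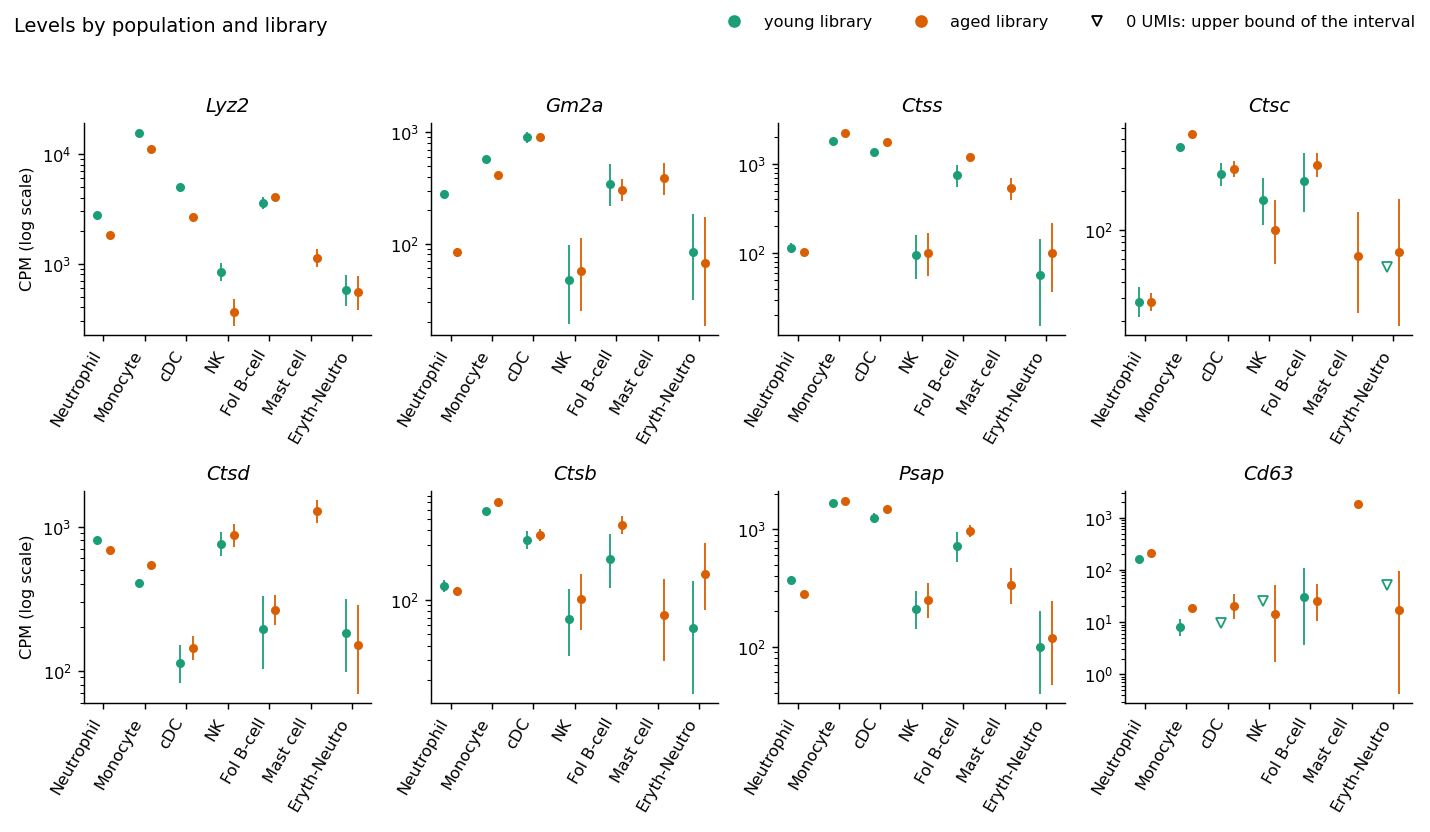
Level of each gene in CPM (log scale) by population, with the young library in green and the aged in orange; bars are exact Poisson intervals for counting error, and open triangles mark the upper bound where no UMI was seen. Ctss and Ctsc stand highest in monocytes in both libraries, while Cd63 stands highest in the cells labelled Mast cell (1882 CPM) and next in neutrophils.

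Lyz2 encodes lysozyme M, the phagocyte form of the enzyme. Young monocytes had 15647 CPM and aged monocytes 11144 CPM, which gave a ratio of aged over young of 0.712 (0.704 to 0.720). A median young monocyte held 95.5 Lyz2 UMIs and a median aged monocyte 68. Neutrophils had 2779 and 1833 CPM, with a median of 4 and 3 UMIs per cell, and their ratio was 0.660 (0.639 to 0.682). Dendritic cells had 4978 and 2647 CPM, and their ratio was 0.532 (0.499 to 0.567). Lyz2 was thus lower in the aged library in all 3 myeloid populations, each taken as a whole. The order monocytes, dendritic cells, neutrophils was the same in both libraries. Inside monocyte clusters, given below, the direction of Lyz2 depended on the clustering.

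With each cell thinned at random to 500 UMIs, which sets the depth equal, 98.7% of young and 97.3% of aged monocytes still held a Lyz2 UMI. The difference in monocytes was therefore in the amount per cell: the middle 50% of thinned cells held 4 to 10 UMIs if young and 3 to 8 if aged. Among young neutrophils 65.7% (62.8% to 68.4%) held Lyz2, and among aged 52.6% (50.7% to 54.6%), at that depth (93.8% and 88.9% unthinned). NK cells, which do not make lysozyme and serve here as a guide to free RNA, held it in 42.0% and 17.2% of thinned cells (84.1% and 50% unthinned), at similar depth (median 2009 and 2314 UMIs). Lyz2 UMIs per cell were 4.98 in young neutrophils against 1.81 in young NK cells, and 3.81 against 0.879 in the aged library. The level in NK cells was also lower in the aged library, at 845 and 366 CPM, but with no doublet removal that difference changed sign (log2 ratio 0.41). Lyz2 was 1 of 3 members measured in NK cells, with Ctsd and Psap, and the only 1 at least 1.5-fold lower, where 10.9% of 696 genes were lower and 6.18% higher. The part of free RNA in the neutrophil difference was not tested. In the 501 young and 1180 aged neutrophils with no UMI of any of 8 monocyte markers, Lyz2 was at 2389 and 1574 CPM, a ratio of 0.659.

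The neighbouring copy Lyz1 had 74 UMIs in young and 46 in aged monocytes, and its ratio was 0.348 (0.235 to 0.509), in the same direction as Lyz2. B cells held Lyz2 at 3564 and 4081 CPM, but the median B cell had 2.5 and 3 UMIs, and the 10% of cells richest in Lyz2 held 39.3% and 46.1% of its UMIs. The 8 monocyte markers summed to 1178 and 1725 CPM in those cells, against 1061 and 1255 CPM in NK cells. Their part in the B cell values was not tested, and the B cells, with 14 in the young library, were given no ratio.

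Gm2a encodes the activator that presents GM2 ganglioside to beta-hexosaminidase. Of the 8 members it showed the widest gap between the libraries in neutrophils. Young neutrophils had 279 CPM (567 UMIs) and aged neutrophils 83.8 CPM (456 UMIs), so the aged over young ratio was 0.301 (0.265 to 0.341). At 500 UMIs per cell, a Gm2a UMI was held by 13.8% (11.9% to 16.0%) of the young neutrophils and by 4.24% (3.50% to 5.09%) of the aged. NK cells held it in 2.90% (0.353% to 10.1%) and 3.45% (0.420% to 11.9%), so the share in aged neutrophils could not be told from theirs. NK cells may express Gm2a themselves and, unlike for Lyz2, are not taken as a guide to its free RNA. In UMIs per cell, young neutrophils had 0.499 against 0.101 in NK cells, and aged neutrophils 0.174 against 0.138.

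Monocytes had Gm2a at 581 and 417 CPM and a median of 3 and 2 UMIs per cell, and the ratio was 0.717 (0.677 to 0.760). Inside monocyte clusters, given below, its direction depended on the clustering. Dendritic cells had the highest level of the populations with at least 20 cells in each library, at 900 and 906 CPM, and their ratio of 1.01 (0.884 to 1.15) included 1. Monocytes exceeded neutrophils 2.09-fold (1.90 to 2.29) in the young library but 4.97-fold (4.50 to 5.50) in the aged. In neutrophils free of monocyte marker UMIs, Gm2a was at 348 and 96.1 CPM, a ratio of 0.276. The part of free RNA in the neutrophil gap of Gm2a was not tested.

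Of the 8 members, Gm2a and Lyz2 were at least 1.5-fold lower in aged neutrophils, where 20.4% of 4740 measured genes were. No member was at least 1.5-fold higher, where 3.63% of genes were. The median log2 ratio of all genes in neutrophils was −0.24, and S100a8 and S100a9, which encode calprotectin, took 284271 CPM of the young and 353975 CPM of the aged neutrophils. Scaling by TMM, a trimmed mean that puts less weight on such abundant genes, moved that median to 0.07 and turned the split of all genes from 172 higher and 966 lower to 500 higher and 336 lower. Under TMM, Gm2a was at 0.373 and Lyz2 at 0.818, so Lyz2 no longer passed 1.5-fold, and Cd63 did, at 1.59. The 4 cathepsins turned from below 1 to above it under TMM, to 1.10 for Ctss, 1.24 for Ctsc, 1.14 for Ctsb and 1.05 for Ctsd. The log2 ratios of Lyz2, Gm2a and Psap stayed below 0 and that of Cd63 above 0 for neutrophils as a whole under every other setting tried.

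**Figure D2:**
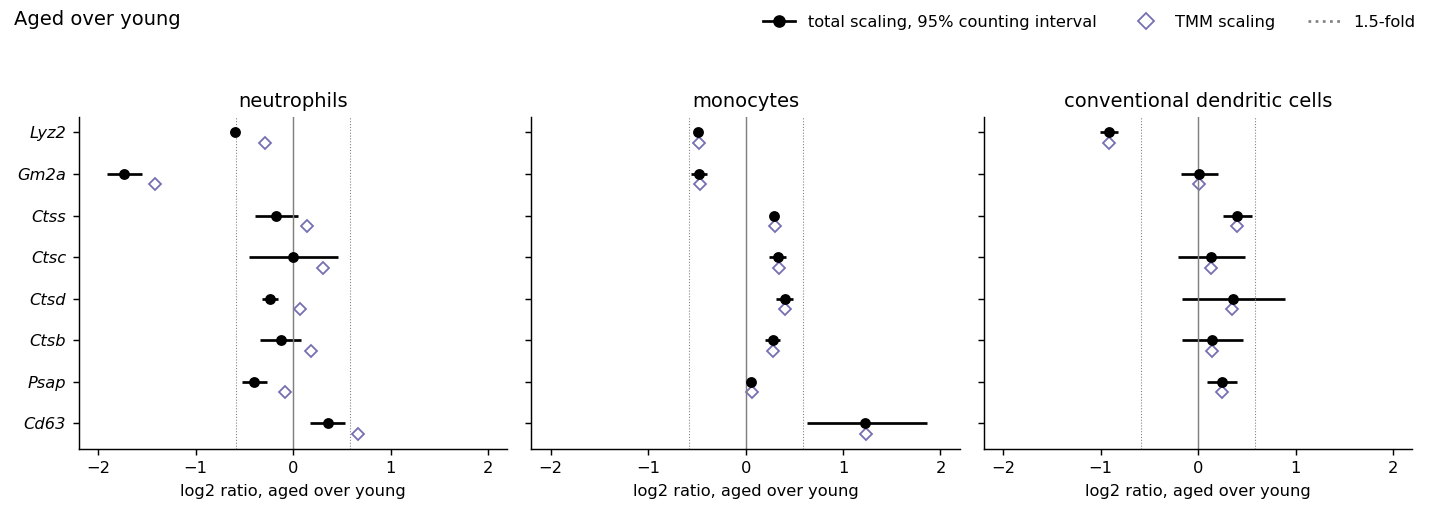
Log2 ratio of the aged over the young library for each gene in neutrophils, monocytes and conventional dendritic cells; filled circles with bars are CPM ratios with counting intervals, open diamonds the same after TMM scaling, and dotted lines 1.5-fold. Gm2a and Lyz2 lie left of 0 in neutrophils and monocytes, the 4 cathepsins lie right of 0 in monocytes, and TMM moves all neutrophil values to the right.

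Psap encodes prosaposin, which is cut into the 4 saposins that activate sphingolipid hydrolases. Monocytes had 1679 and 1742 CPM, with 98.7% and 99.8% of them positive, and the ratio was 1.04 (1.01 to 1.07). Neutrophils had 372 and 283 CPM, and their ratio of 0.760 (0.696 to 0.830) came to 0.942 under TMM. Dendritic cells had 1259 and 1491 CPM, and their ratio was 1.18 (1.06 to 1.32). The monocyte level was 4.51-fold (4.18 to 4.87) that of neutrophils among young cells, and 6.16-fold (5.84 to 6.51) among aged cells. Unlike Gm2a, the other sphingolipid activator, Psap thus differed little between the libraries in monocytes as a whole. Inside monocyte clusters, given below, the direction of Psap depended on the cluster and on the resolution. Young neutrophils had 0.666 Psap UMIs per cell against 0.449 in young NK cells, while aged neutrophils had 0.588 against 0.603.

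Ctss encodes cathepsin S, the cysteine protease that trims the invariant chain of MHC class II. Monocytes had 1814 CPM when young and 2224 CPM when aged, and the ratio was 1.23 (1.19 to 1.26). The thinned share of cells was 56.5% (52.2% to 60.7%) and 64.8% (61.6% to 67.8%). Dendritic cells showed a similar ratio, 1.32 (1.19 to 1.46), from 1343 and 1774 CPM, and thinned shares of 42.3% (28.7% to 56.8%) and 66.7% (56.8% to 75.6%). Thinning the dendritic cells raised that ratio to 1.79, past the 1.5-fold mark, but from only 29 young and 105 aged UMIs. Neutrophils had 115 and 102 CPM, and the ratio of 0.887 (0.760 to 1.04) included 1. Ctss was 15.8-fold (13.8 to 18.1) and 21.8-fold (20.02 to 23.8) higher in monocytes than in neutrophils. In neutrophils its UMIs per cell, 0.206 and 0.212, did not stand above the 0.203 and 0.241 in NK cells.

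Ctsc encodes cathepsin C, which activates the serine proteases of neutrophil and lymphocyte granules by removing a dipeptide. Monocytes had 430 and 541 CPM, and their ratio was 1.26 (1.18 to 1.34). Neutrophils, whose granule proteases it matures, held little of the transcript at this stage, 28.0 CPM (57 UMIs) and 27.9 CPM (152 UMIs), with a ratio of 0.998 (0.731 to 1.38). In neutrophils with no monocyte marker UMI the ratio was 1.61, from 17.0 CPM (14 UMIs) and 27.5 CPM (62 UMIs), and the intervals of those levels, 9.32 to 28.6 CPM and 21.1 to 35.2 CPM, overlapped. NK cells stood at 169 and 100 CPM, 6.03-fold (3.61 to 9.81) above neutrophils in the young library. The ratio of monocytes over neutrophils was 15.4 (11.8 to 20.4) for young cells and 19.4 (16.5 to 22.9) for aged cells.

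Ctsb encodes cathepsin B, a cysteine protease with both endopeptidase and dipeptide-removing activity. Monocytes had 584 and 708 CPM, with 90.7% and 97.0% of them positive, and the ratio was 1.21 (1.15 to 1.28). Neutrophils had 131 and 120 CPM, with a ratio of 0.916 (0.793 to 1.06) that included 1. Dendritic cells had 331 and 365 CPM, with a ratio of 1.10 (0.892 to 1.37). Ctss, Ctsc and Ctsb, the cysteine cathepsins of the set, were thus each 1.21-fold to 1.26-fold higher in aged monocytes, less than the 1.5-fold mark. None had an interval apart from 1 in neutrophils.

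Ctsd encodes cathepsin D, the main aspartic protease of the lysosome, and its pattern over populations ran against that of the cysteine cathepsins. As a share of UMIs it was higher in neutrophils, with 806 CPM among young and 683 CPM among aged cells, than in monocytes, with 408 and 539 CPM. The neutrophil level was 1.97-fold (1.84 to 2.12) and 1.27-fold (1.21 to 1.33) that of monocytes. Monocytes had more UMIs per cell, and counted per cell they held 1.90-fold and 2.61-fold the Ctsd UMIs of neutrophils, so the order depends on the scale. NK cells stood at 757 and 868 CPM, with 39.1% and 41.4% of thinned cells positive against 32.1% and 29.2% of neutrophils. Neutrophils thus did not stand clear of NK cells for Ctsd, and dendritic cells were low, at 113 and 144 CPM.

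Between the libraries, the Ctsd ratio was 1.32 (1.24 to 1.40) in monocytes and 0.848 (0.800 to 0.899) in neutrophils. The neutrophil value came to 1.05 under TMM, so its direction depends on the scaling, while the monocyte value lay above 1 under all settings tried. In dendritic cells the ratio of 1.28 (0.891 to 1.86) and in NK cells that of 1.15 (0.879 to 1.496) included 1.

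Cd63 encodes a tetraspanin of late endosomes, lysosomes and secretory granules, and in neutrophils its protein sits in the membrane of azurophilic granules. Its level in neutrophils was far above that in monocytes. Young neutrophils had 165 CPM and aged neutrophils 211 CPM, and their ratio was 1.28 (1.13 to 1.45). Monocytes had 8.01 CPM (29 UMIs) and 18.7 CPM (121 UMIs), so the neutrophil level was 20.6-fold (14.1 to 31.2) and 11.3-fold (9.33 to 13.7) higher. NK cells had 0 UMIs in 69 young cells, where the interval of the share of cells with a Cd63 UMI reached up to 5.21%. They had 2 UMIs in 58 aged cells.

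The 42 aged cells labelled Mast cell carried Cd63 at 1882 CPM (1617 to 2178), with 90.5% of cells positive. All 7 markers of mast cells or basophils had UMIs there, and at 1276 CPM their Ctsd level was also above that of neutrophils. In monocytes the aged over young ratio of Cd63 was 2.34 (1.55 to 3.63), making it the only member at least 1.5-fold higher in aged monocytes, where 5.87% of 7787 genes were. The 8 neutrophil markers also stood higher in aged monocytes, summing to 23774 CPM in young and 34875 CPM in aged cells (334280 and 422150 CPM in neutrophils), and their part in the Cd63 value was not tested. Among monocyte clusters only 1, at the coarser resolution of 0.3, allowed a Cd63 ratio, 0.933 (0.250 to 7.83) from 2 and 83 UMIs. After thinning to 500 UMIs Cd63 fell short of 50 UMIs in monocytes and had no ratio. No member was at least 1.5-fold lower in them, where 8.76% of genes were. In dendritic cells Cd63 had 0 young and 15 aged UMIs and was given no ratio. Of the other 7 members there, Lyz2 alone passed 1.5-fold, on the lower side (with Ctss on the higher side after thinning), where 5.88% of 2515 genes were lower and 9.11% higher.

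**Figure D3:**
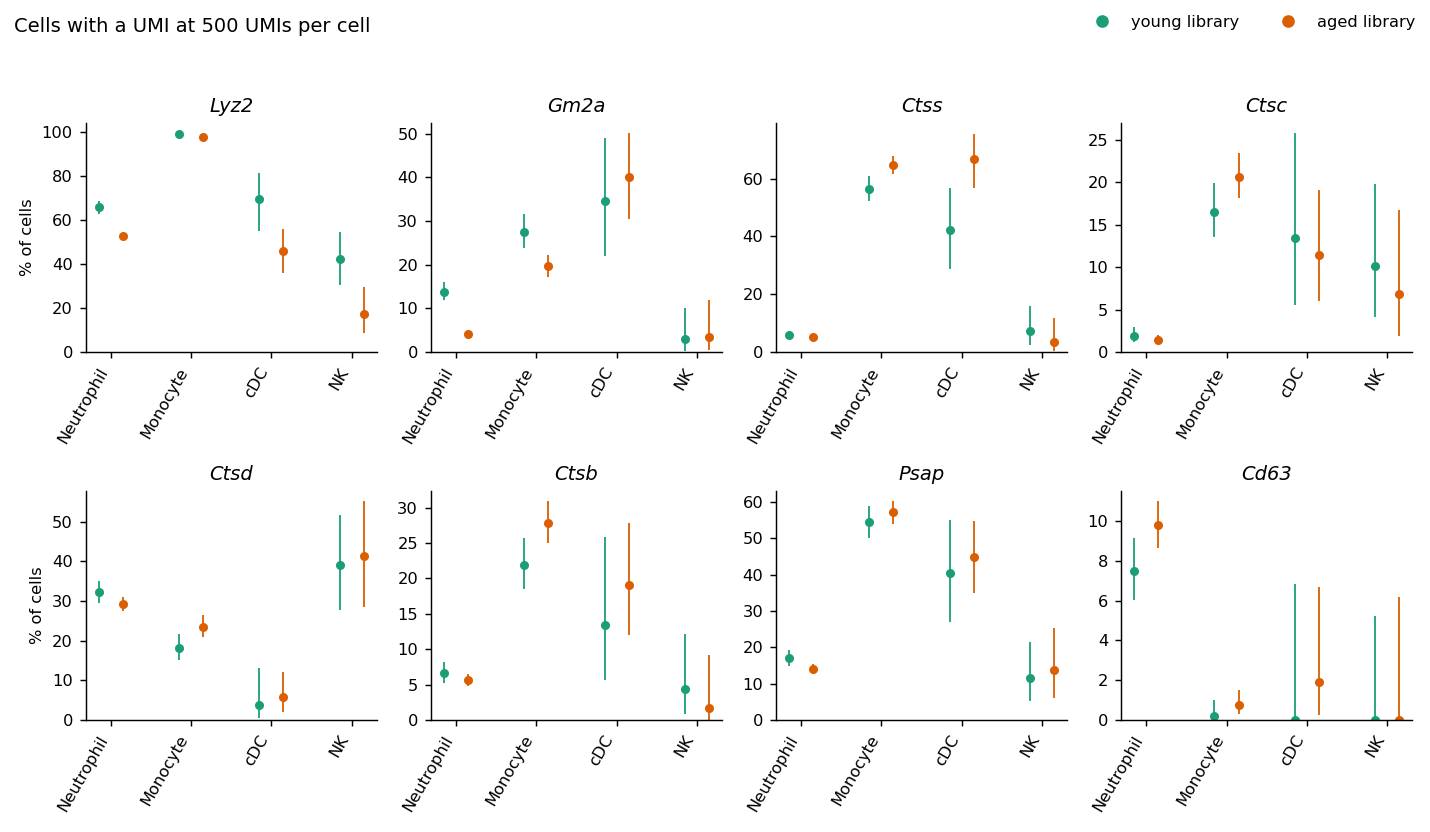
Share of cells with at least 1 UMI of each gene after every cell was thinned to 500 UMIs, by population, with exact binomial intervals; green is the young and orange the aged library. For Gm2a, young neutrophils (13.8%) stand above NK cells and aged neutrophils (4.24%) do not, and for Cd63 neutrophils (7.48% and 9.79%) stand above the other populations plotted.

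Neutrophils and monocytes were each clustered with the 8 members and the lysosomal lists kept out of the genes used, so that the members could be read across cell states. Clusters were split strongly by library, and a cluster held mostly by 1 library may be that library and not a state. Among neutrophils, a cluster led by Ltf, Camp and Ngp, transcripts of specific granule proteins, had 4 of 5 early neutrophil markers among its top 10 genes and is called early neutrophil-like (127 young, 1185 aged cells). A cluster led by Cxcl3, Mmp19 and Ccl4 held 163 young and 1343 aged cells, and a cluster led by Prr5l and Nap1l1 held 846 and 88.

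Lyz2 was higher in the early neutrophil-like cluster than in the Cxcl3 cluster, 1.31-fold (1.19 to 1.44) for young cells and 1.55-fold (1.49 to 1.61) for aged cells. Gm2a ran the other way, at 0.569 (0.344 to 0.923) and 0.546 (0.445 to 0.668) of the Cxcl3 cluster. The highest Gm2a level, 336 CPM, was in the young cells of the Prr5l cluster. Within clusters the aged over young ratio of Gm2a was 0.450 (0.289 to 0.673) in the Prr5l cluster, 0.593 (0.392 to 0.929) in the early neutrophil-like and 0.618 (0.458 to 0.847) in the Cxcl3 cluster. Each of these is nearer to 1 than the 0.301 of all neutrophils together. Cells of the 2 libraries fell mostly into different clusters, and the part of this in the 0.301 was not tested.

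Within the same clusters, in the same order, Lyz2 had ratios of 0.542, 0.663 and 0.560, and all 3 intervals lay below 1. Ctsd had 0.937, 0.996 and 0.984, and all 3 intervals included 1, so in no cluster did counting error leave it lower in the aged cells. Young early neutrophil-like cells had Cd63 at 97.2 CPM (27 UMIs) and aged ones at 226 CPM (591 UMIs), and the ratio was 2.32 (1.58 to 3.55). In the Prr5l and Cxcl3 clusters its ratios, 1.06 (0.706 to 1.54) and 1.18 (0.881 to 1.60), included 1. At the finer resolution of 1, a cluster of 6 young and 66 aged cells was too small for a ratio. Of the 6 others, Lyz2 was below 1 with its interval in 6 and Gm2a in 3. Their ratios ran from 0.491 to 0.804 for Lyz2 and from 0.370 to 0.865 for Gm2a. All cluster ratios are on CPM without TMM, and on CPM the median log2 ratio of all genes in neutrophils was −0.24.

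**Figure D4:**
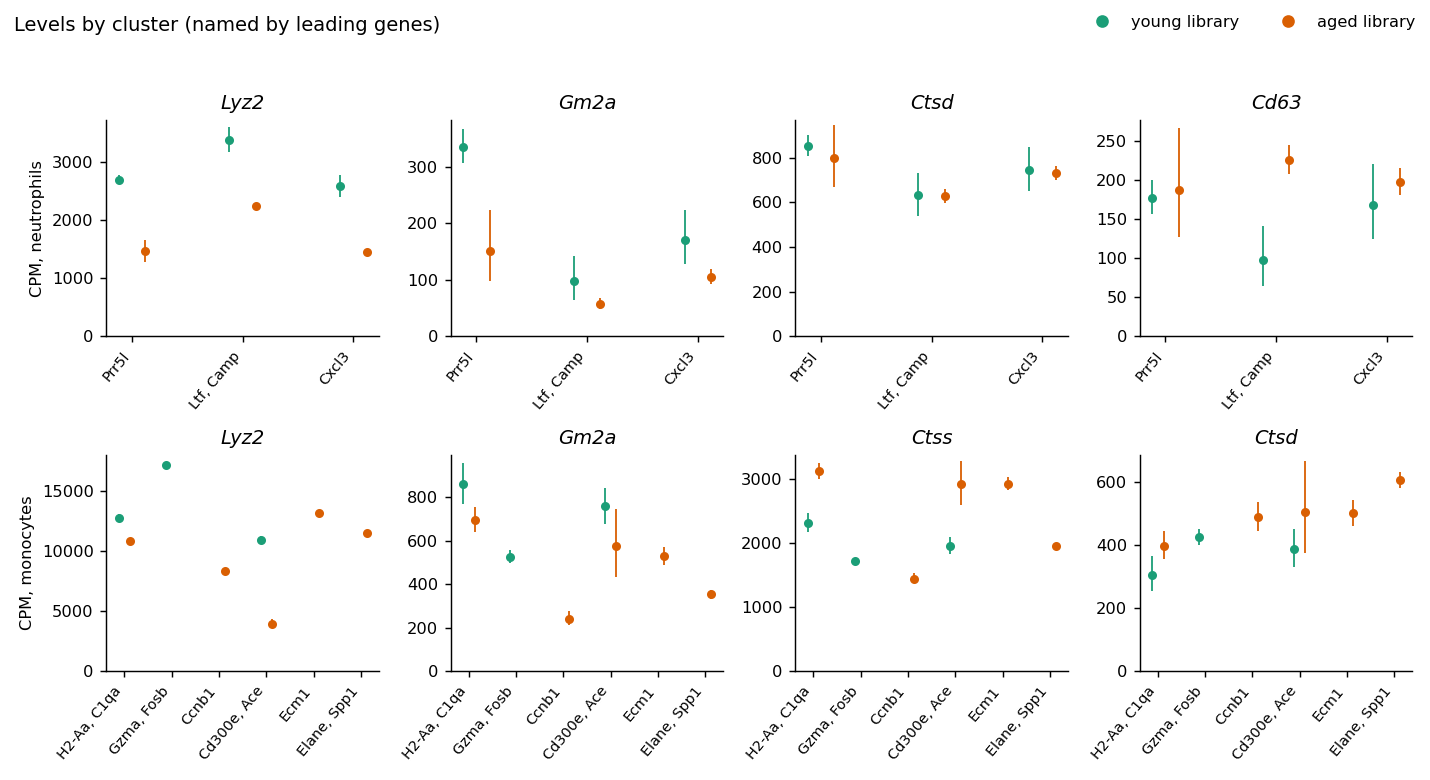
CPM of 4 members in clusters of neutrophils (top) and of monocytes (bottom), named by leading genes, with exact Poisson intervals; a library with fewer than 20 cells in a cluster is not drawn. In each neutrophil cluster the aged Lyz2 and Gm2a values lie below the young ones, and most monocyte clusters are drawn for 1 library only.

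Of 6 monocyte clusters, 4 held fewer than 20 cells of 1 library, so only the other two could be compared by age. The nonclassical monocyte-like cluster, with 5 of its markers (Cd36, Eno3, Ace, Ear2 and Adgre4) among its top 10 genes, held 68 young and 30 aged cells. These cells patrol the vessel wall and carry little Ly6C. In the 4 library-split clusters, 394 of 418 young monocytes were in a cluster led by Gzma. Of the aged monocytes there, 491 of 809 were in one led by Elane, so this reference differed between the libraries. Against it, the nonclassical monocyte-like cluster had less Lyz2 (ratio 0.652 in the young, 0.350 in the aged library) and less Ctsc (0.657 and 0.465). It had more Gm2a (1.48 and 1.54), more Ctsb (1.67 and 2.14) and more Psap (1.52 and 1.17). The median depth of its aged cells was 2055.5 UMIs against 5928 in its young cells, and the part of depth in these values was not tested.

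A cluster led by H2-Aa, Cd74 and C1qa (52 young, 104 aged cells) had more dendritic than C1q markers among its top genes and is left unnamed. Its cells had 1.67-fold and 1.86-fold the Gm2a of the library-split monocytes, 1.35-fold and 1.51-fold the Ctss, and 1.48-fold and 1.54-fold the Psap. Ctsd was lower, at 0.716 (0.589 to 0.865) and 0.708 (0.629 to 0.794). Between the libraries, Ctss was higher in the aged cells of this cluster, at 1.35 (1.25 to 1.46), and in those of the nonclassical monocyte-like cluster, at 1.49 (1.30 to 1.71). Lyz2 was lower in both, at 0.846 (0.817 to 0.877) and 0.362 (0.325 to 0.401). Gm2a was at 0.809 (0.706 to 0.928) in the H2-Aa cluster and at 0.757 in the nonclassical one, where its interval (0.561 to 1.005) included 1. Ctsb differed between these clusters, at 1.06 (0.918 to 1.22) in the H2-Aa cluster and 1.69 (1.39 to 2.05) in the nonclassical one, a difference that was not tested. Psap was above 1 in the H2-Aa cluster, at 1.12 (1.04 to 1.22). In the nonclassical one Psap was below 1, at 0.834 (0.710 to 0.975), and this difference between clusters was not tested either. With coarser clusters (resolution 0.3) Lyz2 was at 0.866 (0.841 to 0.890) in a cluster of 119 young and 141 aged monocytes. In another of 20 and 796 it was at 1.08 (1.02 to 1.14), so its direction inside monocyte clusters depends on the clustering. In those coarser clusters Gm2a was at 0.880 (0.789 to 0.980) and 1.19 (0.861 to 1.68), and the latter interval included 1. Psap was above 1 in both, at 1.09 (1.02 to 1.15) and 1.18 (1.01 to 1.38).

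The wider lysosomal machinery was described from 7 lists of 136 genes outside the members, 133 of them in the table. The lysozyme copy and a list of 5 genes tied to azurophilic granules were kept apart. In neutrophils 82 were measured (at least 50 UMIs in all), 3 of them at least 1.5-fold higher and 17 lower in the aged library, with a median log2 ratio of −0.33 beside −0.24 for all genes. Over all genes 3.63% were higher and 20.4% lower there, so these counts lie near those of genes at large. Under TMM the same genes gave 9 higher and 5 lower, and all 4740 genes gave 500 and 336, so the balance turned with the scaling. In monocytes 119 were measured, with 8 higher, 6 lower (5.87% and 8.76% of all genes) and a median of 0.07 beside 0.01. In dendritic cells 58 were measured, with 7 higher, 0 lower (9.11% and 5.88% of all genes) and a median of 0.18 beside 0.07.

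Of the other lysosomal peptidases, 7 were measured in neutrophils, 1 higher and 4 lower (3.63% and 20.4% of all genes), or 1 and 1 under TMM. Ctsl, cathepsin L, was higher at 1.64 (1.17 to 2.33), while Ctsa, the carboxypeptidase that also protects galactosidase and neuraminidase, was at 0.570 (0.443 to 0.736). In monocytes 2 of 12 were higher and 0 lower (5.87% and 8.76% of all genes). They were Ctsl, with 168 and 384 CPM and a ratio of 2.29 (2.09 to 2.51), and Cpq, a carboxypeptidase, at 1.85 (1.04 to 3.47) from 16 and 53 UMIs. Lgmn, the asparaginyl endopeptidase legumain, was at 1.44 (1.32 to 1.58), short of the mark. In dendritic cells Ctsl was at 2.41 (1.43 to 4.27) from 18 and 81 UMIs. Ctsl was thus above 1.5-fold in the aged library in all 3 populations.

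Among glycosidases, lipases and other hydrolases, 1 of 18 was higher and 4 lower in neutrophils, and 0 of 35 higher and 2 lower in monocytes. Under TMM these counts were 2 and 2, and 1 and 2. Over all genes 3.63% were higher and 20.4% lower in neutrophils, and 5.87% and 8.76% in monocytes. Hexa, the alpha subunit of the hexosaminidase that Gm2a serves, was at 0.491 (0.400 to 0.605) in neutrophils and 0.928 (0.852 to 1.01) in monocytes. Ppt1, the palmitoyl-protein thioesterase, was at 0.570 (0.501 to 0.649) in neutrophils. Ids, iduronate sulfatase, was at 0.464 (0.331 to 0.648) in monocytes. Among membrane proteins, 0 of 13 were higher and 1 lower in neutrophils (0 and 0 under TMM). Lamp1 was at 0.741 (0.624 to 0.882) there and Lamp2 at 1.14 (1.02 to 1.28). In monocytes 0 of 18 were higher and 1 lower, with Lamp1 at 1.12 (1.07 to 1.17).

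The V-ATPase pumps protons into the lysosome. Of its subunit genes, 0 of 14 were higher and 1 lower in neutrophils (3.63% and 20.4% of all genes), or 1 and 0 under TMM. The abundant Atp6v1g1 was at 0.855 (0.819 to 0.893), a direction that turned under TMM (log2 ratio 0.08). In monocytes 2 of 16 were higher and 0 lower (5.87% and 8.76% of all genes). They were the accessory subunits Atp6ap2 at 1.74 (1.49 to 2.04) and Atp6ap1 at 1.51 (1.34 to 1.69). Among sorting factors and regulators, 0 of 12 were higher and 3 lower in neutrophils, and 0 of 19 higher and 3 lower in monocytes. Tfeb, which encodes the regulator that binds the CLEAR element, was at 0.583 (0.418 to 0.817) in neutrophils and 0.650 (0.504 to 0.838) in monocytes. Under TMM, 0 genes of this list passed 1.5-fold in neutrophils, so Tfeb did not, while in monocytes 3 were still lower. Sort1, a sorting receptor for lysosomal proteins, was at 0.652 (0.508 to 0.838) in monocytes.

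Cystatins and stefins inhibit the cysteine cathepsins. In neutrophils 0 of 8 were higher and 1 lower (3.63% and 20.4% of all genes), or 2 and 0 under TMM. The lower gene was Stfa2l1 at 0.587 (0.556 to 0.621), with Cst3, cystatin C, at 0.708 (0.670 to 0.747) and Cstb, stefin B, at 1.26 (1.09 to 1.45). In monocytes 2 of 5 were higher and 0 lower (5.87% and 8.76% of all genes), with Cstb at 1.55 (1.46 to 1.65) and Cst3 at 1.02 (0.990 to 1.05). Stefin A copies are near-identical, so their counts are uncertain. Of the tetraspanins outside the members, 1 of 10 was higher and 3 lower in neutrophils, and 2 of 14 higher and 0 lower in monocytes. Under TMM, 3 were higher and 2 lower in neutrophils. Cd9 was higher in both, at 2.14 (1.98 to 2.33) in neutrophils and 2.03 (1.62 to 2.56) in monocytes, the same direction as Cd63. Tspan13 was lower in neutrophils, at 0.434 (0.380 to 0.496).

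Azurophilic granules carry Cd63 in their membrane, and their serine proteases are matured by cathepsin C. The list kept for these granules also holds Serpinb1a, an inhibitor of those proteases that is among the early neutrophil markers used here. Serpinb1a was higher in neutrophils, at 3.89 (3.11 to 4.94), where 3.63% of all genes were. The other measured gene, Prtn3 (proteinase 3), was at 1.17 (0.813 to 1.71). In monocytes 3 of 4 were higher, where 5.87% of all genes were. Elane, neutrophil elastase, was at 4.64 (2.66 to 8.75) from 14 and 116 UMIs. Ctsg, cathepsin G, was at 2.57 (1.28 to 5.72) from 10 and 46 UMIs, and Serpinb1a at 2.16 (1.77 to 2.65). Elane was the leading gene of a cluster of 3 young and 491 aged monocytes. The sums of the neutrophil markers in monocytes, given above with Cd63, were likewise higher in the aged library, and their part in these values was not tested.

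Likeness to each member was described as the Pearson correlation of log2(CPM + 10) over 10 points, among genes with at least 200 UMIs, with no p because points share libraries and free RNA. The points were the neutrophils, monocytes, dendritic cells and NK cells of both libraries and the B cells and Mast cell label of the aged library. The genes most like each member were Prtn3 for Lyz2 (0.96), Cst3 for Gm2a (0.96), Tubb6 for Ctss (0.99), Cope for Ctsc (0.98), Cd84 for Ctsd (0.96), Cd93 for Ctsb (0.98), Irf5 for Psap (0.99) and Rab44 for Cd63 (0.97). Among the members, Ctsb with Psap (0.96) and Ctss with Psap (0.95) were the most alike. Ctsd and Cd63 stood apart from the rest. Ctsd had values of −0.47 with Lyz2, −0.66 with Gm2a and −0.73 with Psap, and 0.57 with Cd63. Cd63 was below 0 with every member but Ctsd, from −0.02 with Gm2a to −0.68 with Ctsc.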

How the data were processed

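Single-cell libraries of sorted blood myeloid cells came from 10x 3′ v2 chemistry, per the labels' protocols, 1 from young and 1 from aged mice. The authors deposited unnormalized UMI counts, in a table of genes by cells that also holds their population labels. Cell Ranger 2.1.1 and mm10 were used per the submitters' processing notes, and which cells and genes the authors filtered out is not given in the sources used here. The libraries held 6440664 (young) and 13752454 (aged) UMIs in 1849 and 3944 cells. No cell (0) fell below 200 genes or 500 UMIs or had over 10% of its UMIs from mitochondrial genes. Doublets were scored with scrublet in scanpy 1.11.5, and the highest-scoring cells were removed at 8 per 1000 for each 1000 cells, 27 young and 124 aged.

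Counts were summed per population and library and divided by the total to give CPM. Sums carry exact Poisson, ratios exact conditional binomial and shares Clopper-Pearson intervals at 95%, for counting error only. A ratio needed 50 UMIs over both libraries and 20 cells in each, and 1.5-fold was the mark for counts of genes. Genes at 0 in 1 library got no ratio. TMM factors came from edgeR 4.0.16. Clusters used counts scaled to 10000 per cell, 2000 variable genes without the members and lists, 30 components, 15 neighbours and Leiden resolution 0.5. The ratio script was tested on simulated data. Groups are those of the age label, and the comparisons are aged against young within a population and monocytes against neutrophils within a library.

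The members and gene lists were chosen with earlier results of these data known. All 8 members are described. In a list, the genes that could be named were the 4 with the most UMIs and the 4 with the largest change, and the choice among them was made with values known. Alternatives changed doublet removal, cell filters, scaling, depth, the weight of cells, the UMI minimum and cluster resolution. Not analysed here were antigen receptor genes and Xist.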

Additional observations from a re-analysis of the deposited data

Results flagged for a closer look

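Ctsd and Psap differed between the libraries in opposite directions in neutrophils and monocytes, with intervals apart from 1 in each, and the difference between the populations was not tested. The Ctsd ratio of aged over young was 1.32 in monocytes and 0.848 in neutrophils, so the monocyte ratio was 1.56 times the neutrophil ratio. The Psap ratio was 1.04 in monocytes and 0.760 in neutrophils, and the monocyte ratio was 1.37 times the neutrophil ratio. Over all measured genes the median log2 ratio was −0.24 in neutrophils and 0.01 in monocytes. Under TMM scaling the neutrophil values on the log2 scale were 0.07 for Ctsd and −0.09 for Psap. Without ribosomal and mitochondrial genes in the total, the Psap value in monocytes was −0.01. For neither gene did the opposite directions hold under every scaling.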

How the results depend on the processing

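No paired analysis was possible because each age has 1 library. In neutrophils, 2 members were at least 1.5-fold lower and 0 higher, and of the lysosomal lists 17 genes were lower and 3 higher. Over all 4740 genes measured, 966 were lower and 172 higher. TMM scaling gave 1 member lower and 1 higher, with 5 list genes lower and 9 higher (336 and 500 of all genes). Centring on the median of all genes gave 1 and 1, with 5 and 5 (417 and 389 of all genes). Leaving S100a8, S100a9 and Retnlg out of the total gave 1 member lower, with 8 list genes lower and 5 higher (486 and 344 of all genes). Under these scalings the list counts moved the same way as those of all genes. Thinning to 500 UMIs gave 1 member lower, where 479 of 2230 genes were. A minimum of 200 UMIs gave 8 list genes lower (363 of 2172 genes). No minimum gave 35 lower and 8 higher (3008 and 666 of 9280 genes). Neutrophils with no monocyte marker UMI, an alternative chosen after seeing the data, gave 1 member (Ctsc, at 1.61) and 6 list genes higher, where 128 of 3060 genes were. In monocytes, the 1 member higher (Cd63) became 0 after thinning and at a minimum of 200 UMIs, which it does not reach. The 6 list genes lower became 2 under either, and the 8 higher became 5 at 200 UMIs. Over all genes, 682 of 7787 lower became 105 of 1778 after thinning and 211 of 4368 at 200 UMIs. The 457 higher became 182 at 200 UMIs. The sign of the log2 ratio turned for Ctsd in neutrophils under TMM (0.072) and centring (0.0032), for Psap in monocytes without ribosomal and mitochondrial genes in the total (−0.014), and for Lyz2 in NK cells with no doublet removal (0.41), and the cause was not tested. In neutrophils Ctss, Ctsc and Ctsb, whose intervals included 1, also turned, to 0.14, 0.31 and 0.18 under TMM and 0.07, 0.24 and 0.11 under centring. In dendritic cells thinning took Ctss past 1.5-fold (1.79, from 29 young and 105 aged UMIs). Of the other values, 92 group counts stayed within 1.5 times the main count and 218 single values within the main value's counting interval (for medians over clusters, the range of the clusters), while 44 single values moved outside it. The depth of neutrophils (median 1631.5 and 1899 UMIs) limits Ctsc, and 14 young B cells limit any ratio there.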
